A study of Mus musculus with 2 samples.

Results

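Gm42418, AY036118 and Gm26917 are 3 of the 32285 genes counted in these libraries, and all 3 are long noncoding RNA annotations that lie on or beside an annotated 18S ribosomal RNA transcript on mouse chromosome 17. They were selected by symbol, with earlier results of these data known, for their share of the unique molecular identifiers (UMIs) of a cell barcode in relation to globin, to mitochondrially encoded (mt-) RNA, to the number of detected genes and to the library. Those relations are therefore described here and not tested. The study sequenced single cells from blood of wild type mice that had received burn and tenotomy (a skin burn with a cut tendon, an injury used as a model of heterotopic ossification). The blood was enriched on a microfluidic iChip and barcoded with 10x Genomics Chromium, and the labels call the cells cMPCs and blood cells. There were 2 libraries of this 1 group, replicate 1 and replicate 2, with no uninjured group. The labels give no age and do not say whether the replicates came from separate animals, so the spread between them may be technical.

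Ribosomal RNA is transcribed by RNA polymerase I in the nucleolus as a long precursor that holds the 18S, 5.8S and 28S RNAs between transcribed spacers. The precursor is cut and modified into the mature RNAs, which carry no poly(A) tail, so oligo(dT) priming of these RNAs is usually attributed to internal A-rich stretches. Maturing red cells keep ribosomes after they have lost the nucleus, and with it the nucleolus, and then lose the ribosomes too.

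In the mm10 build (GENCODE M21), Gm42418 (ENSMUSG00000098178) is a lincRNA gene of 1 exon at chr17:39846958-39848788 on the plus strand, 1831 bases long. The annotated 18S transcript covers 39846353 to 39848201, so the first 1244 bases of Gm42418 (67.9%) lie within it and the last 587 lie beyond its end. That transcript belongs to CT010467.1, an rRNA gene that the annotation places on the minus strand and that was not among the genes counted here. This gene runs on to 39848827, past the end of Gm42418, so all of Gm42418 lies within its span. Another transcript of the same gene shared 515 identical stretches of 50 bases with Gm42418, on the opposite strand. AY036118 (ENSMUSG00000105361) is a lincRNA at chr17:39847113-39848035 on the minus strand, and its 923 bases are the exact reverse complement of bases 156 to 1078 of Gm42418. Gm26917 (ENSMUSG00000097971) is a lincRNA at chr17:39843013-39846341 on the plus strand, 3329 bases long, and ends 11 bases before the 18S transcript, where the external spacer of the precursor would lie. The sources used here do not say how strand was used in counting. Without strand, the reads of AY036118 and of the stretch of Gm42418 opposite it cannot be told apart.

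**Figure D1:**
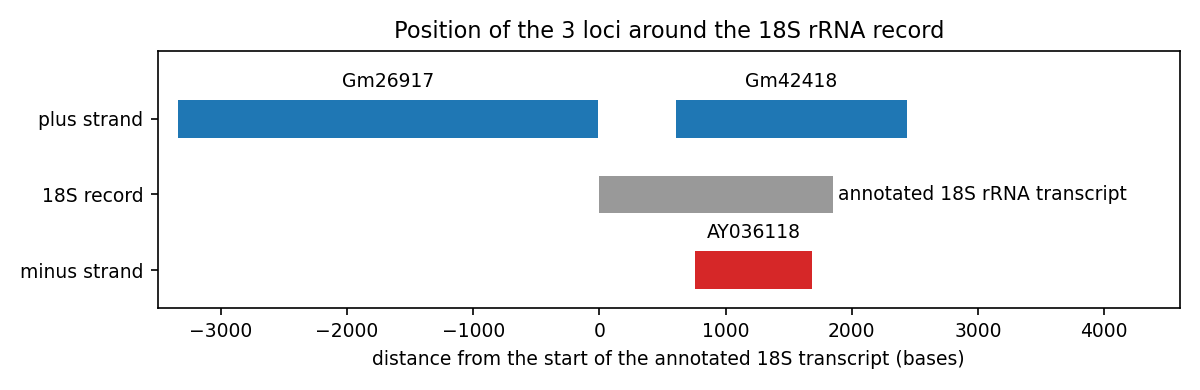
Position of the 3 loci around the annotated 18S transcript, as distance in bases from its start. The upper bars are on the plus strand and the lower bar on the minus strand. Gm26917 ends 11 bases before the 18S transcript, Gm42418 runs 587 bases past its end and AY036118 lies within Gm42418 on the other strand.

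The first pair of sequences shows the overlap of AY036118 and Gm42418, and the next shows where Gm42418 leaves the 18S transcript, with the 18S bases in capitals. All are GENCODE M21 transcript sequence, 5′ to 3′ on the strand of the named gene.
AY036118, bases 1 to 40, chr17:39847996-39848035, minus strand: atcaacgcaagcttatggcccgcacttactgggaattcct
Gm42418, bases 1039 to 1078, chr17:39847996-39848035, plus strand: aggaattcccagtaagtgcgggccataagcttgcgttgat
Gm42418, bases 1215 to 1274, chr17:39848172-39848231, plus strand: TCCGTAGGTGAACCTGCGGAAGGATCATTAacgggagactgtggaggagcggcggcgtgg
The 30 bases in capitals read as the 3′ end of mature 18S RNA in its own sense, so Gm42418 is written in the sense of the ribosomal RNA and AY036118 against it.

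The longest run of A in each locus, with 60 bases on each side, is shown because oligo(dT) can prime on A-rich stretches. Capitals mark the run.
Gm42418, bases 150 to 275, chr17:39847107-39847232, plus strand: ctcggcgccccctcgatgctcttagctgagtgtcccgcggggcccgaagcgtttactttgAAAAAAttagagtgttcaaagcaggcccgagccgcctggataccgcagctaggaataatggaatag
AY036118, bases 599 to 722, chr17:39847314-39847437, minus strand: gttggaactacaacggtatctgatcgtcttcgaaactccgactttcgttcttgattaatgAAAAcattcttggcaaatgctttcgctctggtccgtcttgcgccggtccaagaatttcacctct
Gm26917, bases 2064 to 2187, chr17:39845076-39845199, plus strand: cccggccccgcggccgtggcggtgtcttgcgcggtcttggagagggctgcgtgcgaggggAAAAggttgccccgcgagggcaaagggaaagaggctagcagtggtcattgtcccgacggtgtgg
The longest run was 6 bases in Gm42418 and 4 bases in AY036118 and in Gm26917, against a median of 5 over the 117358 transcripts of counted genes. The GC content was 60.2% in Gm42418, 54.4% in AY036118 and 69.1% in the longer Gm26917 transcript, against a median of 49.9%. Whether these runs primed any read was not tested. Among 141767 spliced transcripts searched for identical stretches of 50 bases, those of Gm42418, AY036118 and CT010467.1 shared such stretches with each other and with no other gene, and Gm26917 shared none.

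Replicate 1 held 1008 barcodes and 3967318 UMIs, and replicate 2 held 849 barcodes and 3329292 UMIs, with no barcode in common. The median barcode had 2219 UMIs and 107 genes in replicate 1, and 1643 UMIs and 97 genes in replicate 2. Globin genes took 73.5% and 75.2% of all UMIs and mt- genes 9.22% and 8.97%, so barcodes of red cells and barcodes of almost only mitochondrial RNA made up most of both libraries.

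Gm42418 was the fifth most counted gene in both libraries. It took 229664 UMIs in replicate 1, a share of 5.79% (exact binomial 95% interval 5.77 to 5.81, counting error only), and 210041 UMIs in replicate 2, a share of 6.31% (6.28 to 6.34). The mean was 6.05% ± 0.368 (SD, n = 2). Set against UMIs that were neither globin nor mt-, Gm42418 made up 33.5% in replicate 1 and 39.7% in replicate 2. It had a UMI in 992 of 1008 barcodes and in 830 of 849, and its highest share of a single barcode was 78.2% and 78.6%.

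AY036118, the antisense annotation, ranked 16 in both libraries, with 10396 UMIs (0.262%) in replicate 1 and 9417 UMIs (0.283%) in replicate 2. It was counted in 655 and 577 barcodes. Gm26917, in the place of the external spacer, had 404 UMIs (0.0102%, rank 119) in 110 barcodes of replicate 1 and 470 UMIs (0.0141%, rank 85) in 38 barcodes of replicate 2. The 3 loci together held 6.06% and 6.61% of all UMIs, nearly all of them from Gm42418.

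The barcodes were divided into 6 disjoint strata from the measures by which the loci were selected. They were barcodes over 80% mt-; barcodes of 20 to 80% mt-; and, at or under 20% mt-, barcodes with under 100 genes (called sparse here) and barcodes with at least 100 genes whose globin share was at least 90%, 40 to 90% or under 40%. The 8 erythroid markers, such as Alas2 (the first enzyme of haem synthesis in red cells), summed to 5888 to 10301 counts per 1e+06 UMIs (CPM) in the sparse stratum and the 2 strata of 40% globin or more. They summed to 430.6 and 2384 CPM under 40% globin, and to 39.9 to 858 CPM over 20% mt-.

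Gm42418 was lowest where mt- RNA took nearly everything. Over 80% mt-, it took 0.792% of UMIs in the 366 barcodes of replicate 1 and 0.766% in the 285 of replicate 2, with a median of 4 and 3 UMIs per barcode. At 20 to 80% mt- it took 10.6% (74 barcodes) and 11.6% (43 barcodes). These shares follow in part from the total being filled by mt- UMIs: of UMIs neither globin nor mt-, Gm42418 was 15.7% and 13.8% over 80% mt- and 18.6% and 23.0% at 20 to 80%. Within the first of these strata the rank correlation of its share with the mt- share was -0.64 and -0.61, across barcodes whose shares are parts of 1 total.

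In the red cell strata Gm42418 was a small part of all UMIs and a large part of what was not globin. At 90% globin or more it took 2.51% of UMIs in 145 barcodes of replicate 1 and 2.10% in 121 of replicate 2, which was 36.2% and 32.8% of UMIs neither globin nor mt-. At 40 to 90% globin it took 9.17% in 238 barcodes and 9.40% in 185, or 52.3% and 50.7% of the remaining UMIs. The median number of Gm42418 UMIs per barcode was 285 and 252 at 90% or more, and 428.5 and 404 at 40 to 90%. At 90% globin or more, the lowest 10% of barcodes had at most 175 Gm42418 UMIs in replicate 1 and 143 in replicate 2, and the highest 10% had at least 401 and 378.

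Under 40% globin, where leukocyte and mesothelial markers were found, Gm42418 took 12.2% of UMIs in 88 barcodes of replicate 1 and 16.4% in 42 of replicate 2. That was 13.2% and 17.9% of UMIs neither globin nor mt-. The median barcode had 131 Gm42418 UMIs in replicate 1 and 493.5 in replicate 2, so the libraries differed most here in absolute number.

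By share of all UMIs the strata ordered as globin under 40% (14.3% ± 2.95, SD, n = 2 libraries), 20 to 80% mt- (11.1% ± 0.662), sparse (10.5% ± 3.79), globin 40 to 90% (9.28% ± 0.162), globin at least 90% (2.31% ± 0.286) and over 80% mt- (0.779% ± 0.0190). The sparse stratum overlapped each of its neighbours in the range of the libraries, while the 2 lowest strata stood below all others in both. By share of UMIs neither globin nor mt- the order changed to sparse (62.9% ± 3.73), globin 40 to 90% (51.5% ± 1.15), globin at least 90% (34.5% ± 2.34), 20 to 80% mt- (20.8% ± 3.16), globin under 40% (15.6% ± 3.30) and over 80% mt- (14.8% ± 1.33). The last 2 overlapped. The stratum with most Gm42418 on the first measure was thus among the lowest on the second.

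**Figure D2:**
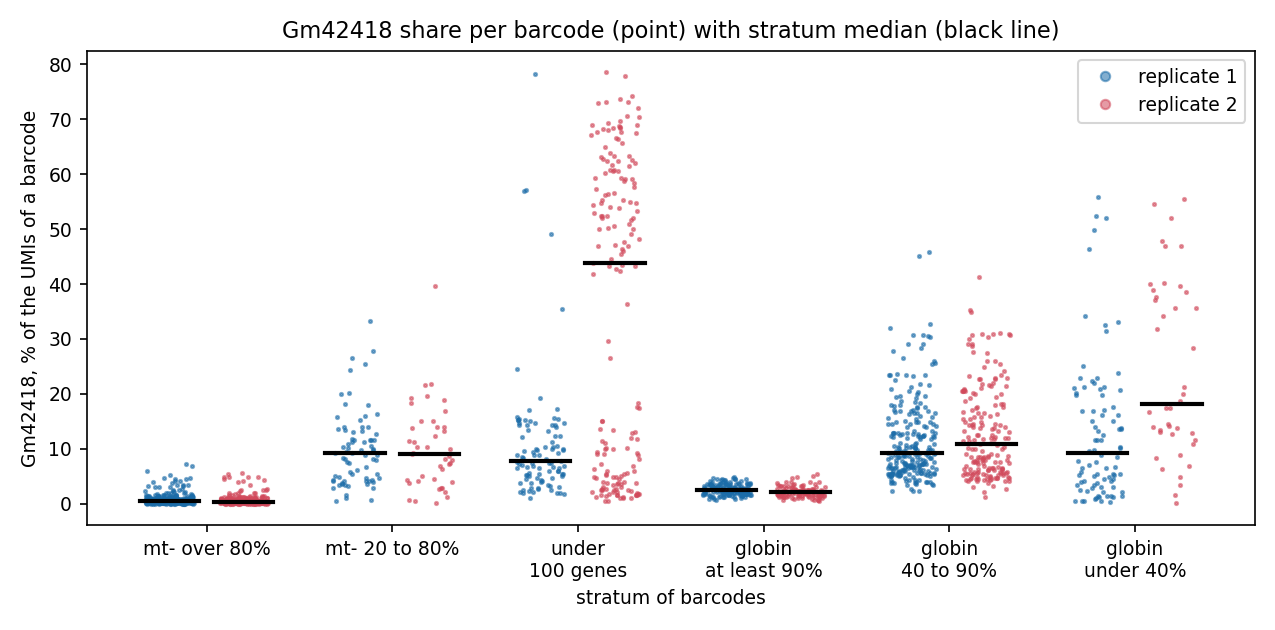
Gm42418 as a percentage of the UMIs of each barcode (vertical axis) in the 6 strata (horizontal axis), with replicate 1 left and replicate 2 right in each stratum. Points are barcodes and black lines are medians. In the sparse stratum replicate 2 has a dense group of points above 40%, where replicate 1 has 4 barcodes.

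The sparse stratum held the barcodes with the highest shares of Gm42418, though not those with the highest numbers of its UMIs. Its median share per barcode was 7.86% in the 97 sparse barcodes of replicate 1 and 43.9% in the 173 of replicate 2, and Gm42418 was over 50% of all UMIs in 3 and 76 of them. At a dividing line of 50% globin, chosen after these values were seen, 4 sparse barcodes of replicate 1 and 94 of replicate 2 lay below the line. The 94 had a median of 842.5 UMIs and 60 genes, with a Gm42418 share of 36.4 to 78.6% and a median of 59.2%. The other 93 and 79 sparse barcodes had medians of 3359 and 4014 UMIs and of 7.49% and 4.58% Gm42418. In number, the median was 489.5 Gm42418 UMIs in the 94 barcodes, against 276 and 196 in the sparse barcodes of at least 50% globin. Malat1, a nuclear long noncoding RNA abundant in nucleated cells, had 0 UMIs in the whole sparse stratum of both libraries, and so did Gm26917. The erythroid markers were 1.13% of all UMIs in the 94 barcodes, against 0.836% and 0.674% in the sparse barcodes of at least 50% globin. UMIs neither globin nor mt- were 77.3% of the total in the 94, against 11.7% and 8.44%. As a part of those UMIs the erythroid markers were thus lower in the 94 barcodes, the reverse of the order by all UMIs. What these 94 barcodes were before capture was not tested.

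The Gm42418 share and the globin share were almost mirror images in the sparse stratum and at 40 to 90% globin, and less so at 90% or more. The rank correlation (Spearman) of the Gm42418 share with the globin share across barcodes was -0.98 and -0.99 in the sparse stratum, -0.91 and -0.96 at 40 to 90% globin and -0.66 and -0.69 at 90% or more. Both are shares of 1 total and must move against each other when they fill it. Globin and Gm42418 together made up a median of 95.7% of UMIs in both libraries at 90% globin or more, and 90.6% and 89.1% at 40 to 90%. In the sparse stratum they made up a median of 93.4% in replicate 1 and 81.0% in replicate 2. The numbers of UMIs moved together only weakly, with rank correlations of 0.17 and 0.22 at 90% or more and 0.12 and 0.12 at 40 to 90%, and opposite in the sparse stratum (-0.35 and -0.66). In the sparse stratum the number of Gm42418 UMIs was thus lower in barcodes with more globin UMIs, while in the 2 strata of 40% globin or more it was slightly higher in them. Under 40% globin the relation of shares was positive (0.22 and 0.58), and the Gm42418 share was lower in barcodes with more detected genes (-0.32 and -0.81). These 2 relations span unlike kinds of barcodes in replicate 2. There, 22 of 42 met neither cell class rule given below, with medians of 26.5% globin, 126.5 genes and 38.1% Gm42418. The mesothelial or mesenchymal and leukocyte barcodes had medians of 0.0515% and 0.123% globin, 2412 and 972 genes, and 12.8% and 3.49% Gm42418.

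**Figure D3:**
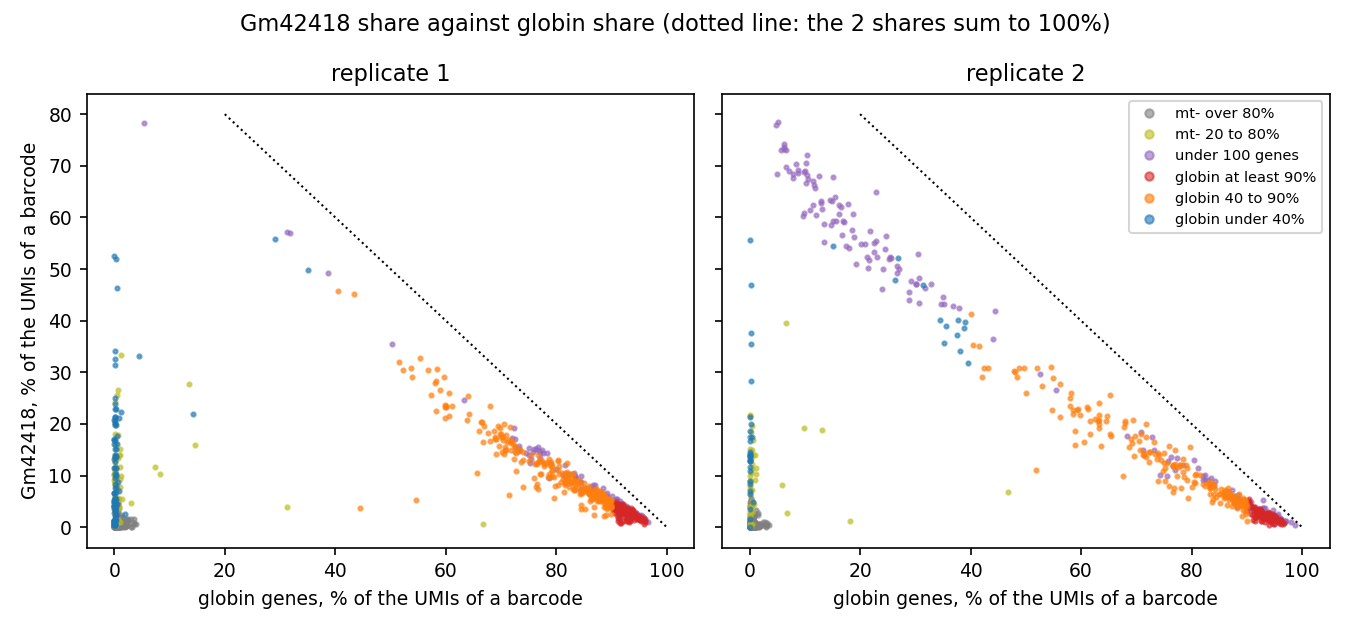
Gm42418 share against globin share of each barcode, both in percent of its UMIs, for replicate 1 (left) and replicate 2 (right), with colours for the 6 strata. The dotted line marks where the 2 shares would sum to 100%. The median sum was 95.7% at 90% globin or more in both libraries, and 90.6% and 89.1% at 40 to 90%. Replicate 2 has many sparse barcodes of low globin and high Gm42418 share that lie further below the line. The median sum of all its sparse barcodes was 81.0%.

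**Figure D4:**
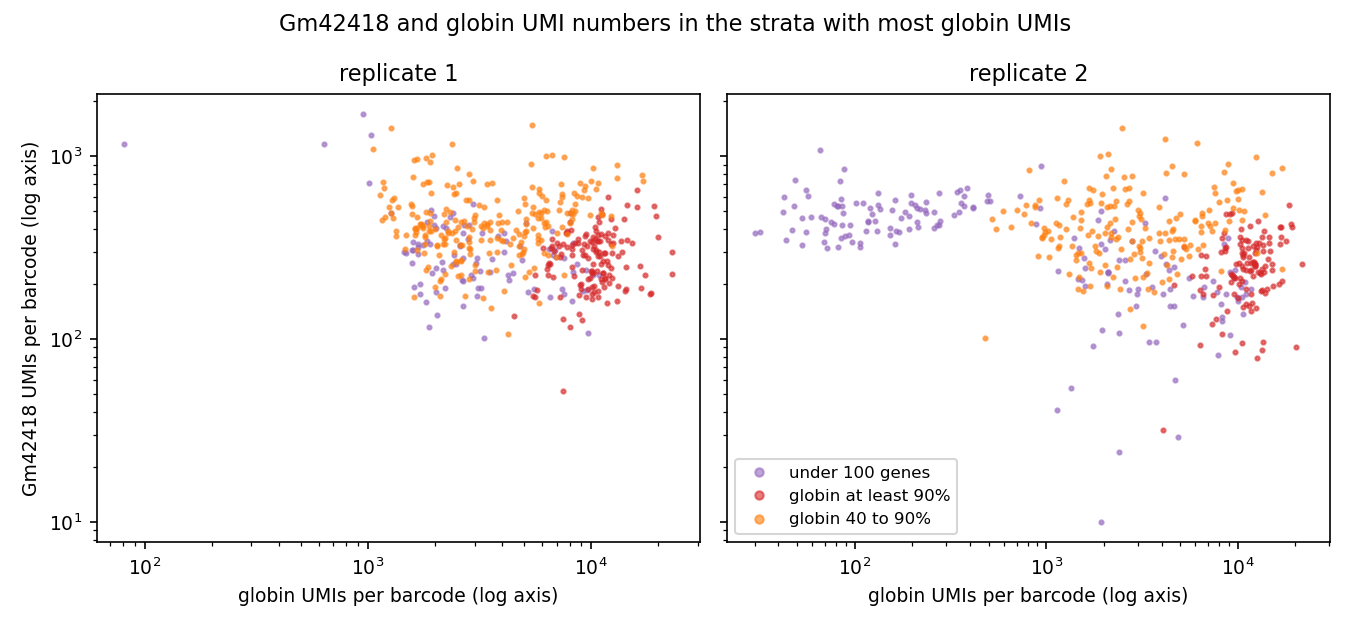
Number of Gm42418 UMIs against number of globin UMIs per barcode, both on log axes, in the sparse stratum and the strata of 40 to 90% and at least 90% globin. The rank correlation was between 0.12 and 0.22 in the 2 globin strata, and -0.35 in replicate 1 and -0.66 in replicate 2 in the sparse one.

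AY036118 followed Gm42418 in part. Its shares were 0.369% and 0.597% in the sparse stratum, 0.422% and 0.409% at 40 to 90% globin, 0.174% and 0.154% at 90% or more, 0.237% and 0.330% under 40%, 0.148% and 0.121% at 20 to 80% mt-, and 0.0208% and 0.0181% over 80% mt-. In the 2 strata of 40% globin or more every barcode had a UMI of it, with medians of 17 to 19 per barcode. With each barcode thinned to 500 UMIs, AY036118 was seen in 77.3% and 82.7% of barcodes at 40 to 90% globin and in 50.3% and 49.6% at 90% or more. It was then seen in 46.6% and 59.5% under 40% globin and in 9.56% and 9.82% over 80% mt-, against 16.4% and 15.8% there unthinned.

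The ratio of AY036118 to Gm42418 was not constant. At 90% globin or more there were 6.93 AY036118 UMIs per 100 of Gm42418 in replicate 1 and 7.33 in replicate 2. The ratio was 4.60 and 4.36 at 40 to 90% globin, 4.73 and 4.54 in the sparse stratum, 2.62 and 2.37 over 80% mt-, 1.94 and 2.02 under 40% globin, and 1.39 and 1.04 at 20 to 80% mt-. In these pooled ratios the libraries differed by less than the strata did: the means ran from 7.13 ± 0.287 (SD, n = 2) to 1.22 ± 0.249. The sparse ratio joined unlike parts, in unlike numbers in the 2 libraries. Under 50% globin it was 2.00 in replicate 1 (4 barcodes) and 3.97 in replicate 2 (94 barcodes). At 50% globin or more it was 5.27 (93 barcodes) and 6.09 (79 barcodes). Across barcodes of a stratum, the shares of these 2 loci correlated at rank level by 0.12 to 0.82, a range that includes the effect of their common total.

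Gm26917 was nearly confined to barcodes outside the sparse stratum and the 2 strata of 40% globin or more. It had 0 UMIs in the sparse stratum of both libraries (0 of 899043 UMIs together, which allows a share of up to 0.000334%) and 0 at 90% globin or more (0 of 3147262, up to 9.53e-05%). At 40 to 90% globin it had 6 UMIs in 2 barcodes of replicate 1 and 0 in replicate 2, beside 112693 and 83741 UMIs of Gm42418. Under 40% globin it had 234 and 436 UMIs, or 0.0933% and 0.304%, at 20 to 80% mt- 144 and 22 UMIs, and over 80% mt- 20 and 12. By stratum sums Gm26917 thus lay where nucleated cell markers lay, unlike Gm42418. This did not hold for every single barcode.

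The Gm26917 values under 40% globin were uneven between barcodes. In replicate 1, 59 of 88 barcodes had a UMI of it (67.0%), and 33 (37.5%) after thinning to 500 UMIs. In replicate 2, 15 of 42 had one (35.7%), and 5 (11.9%) after thinning. The share in the strata of at least 90% globin, which held no Malat1 beyond 1 UMI in each library, was 0 of 145 and 0 of 121 barcodes at median depths of 11028 and 12142 UMIs. In replicate 2, 3 barcodes held 241, 128 and 36 of its 436 UMIs, where Gm26917 was 7.88%, 6.20% and 5.93% of their UMIs. The first 2 of them each had 4 of the 7 endothelial markers, and the third had none of the listed cell type markers. Without the first, replicate 2 had 195 UMIs (0.139%), and without the first 2 it had 67 UMIs (0.0484%). In replicate 1 the same left 211 and 196 of 234 UMIs. Of the barcodes with most Gm26917 in replicate 1, those with shares of 2.38% and 1.58% had 1 endothelial marker each and no other listed marker.

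**Figure D5:**
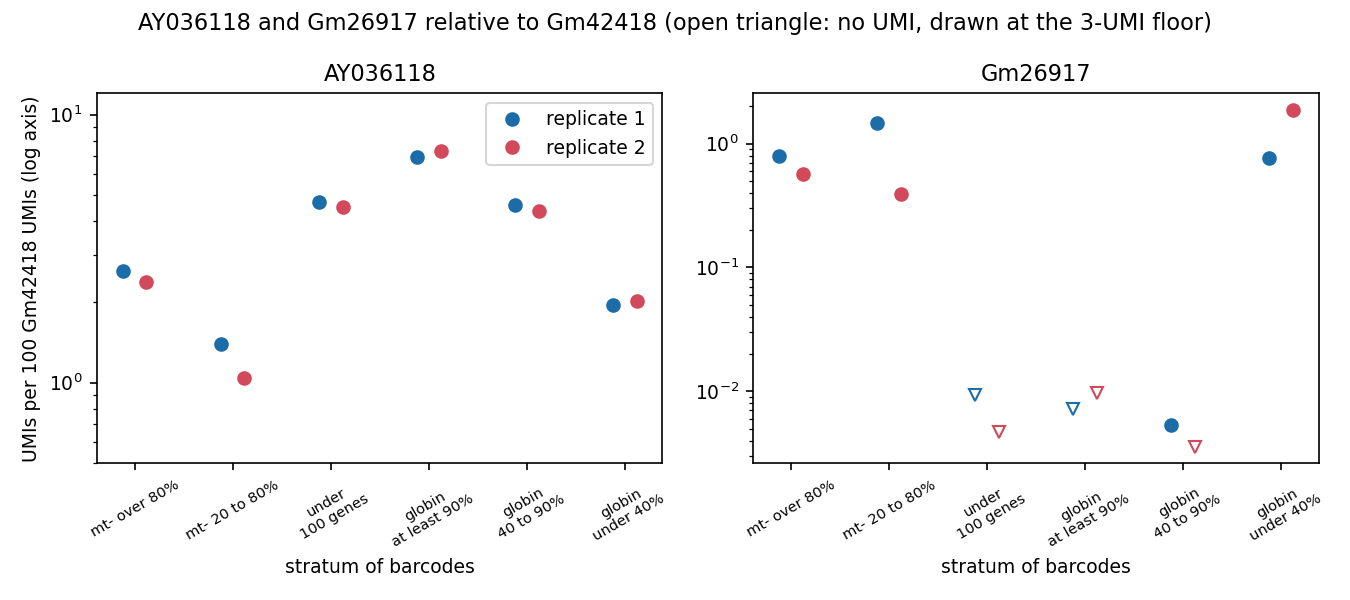
UMIs of AY036118 (left) and Gm26917 (right) per 100 UMIs of Gm42418 on log axes, by stratum, with 1 point for each library. Open triangles mark strata with no UMI, drawn at the floor of 3 UMIs. AY036118 is highest at 90% globin or more (6.93 and 7.33), where Gm26917 has none.

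Genes of nuclei and of ribosome production had the distribution of Gm26917 more than that of Gm42418. Malat1 had 9463 and 3808 UMIs under 40% globin, 110 and 1 at 40 to 90%, and 1 and 1 at 90% or more. The 20 counted genes of the RNA polymerase I list, such as Ubtf (which binds the ribosomal gene promoter), Polr1d (a subunit) and Taf1b and Taf1d (parts of the selectivity factor), summed to 119 and 65 UMIs under 40% globin. They summed to 3 and 3 UMIs at 90% globin or more, 4 and 2 at 40 to 90%, and 1 and 0 in the sparse stratum. The 35 genes of rRNA processing and ribosome assembly, among them Ncl, Npm1, Xrn2 and Wdr43, had 283 and 193 UMIs under 40% globin, 8 and 1 at 90% or more, 3 and 6 at 40 to 90%, and 0 in the sparse stratum. The cytosolic ribosomal protein genes were counted in every stratum, from 2388 to 20333 CPM, with Rpl41 the most counted of them (1203 and 1006 UMIs at 90% globin or more).

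The genes whose level was most like that of Gm42418 were ranked by Pearson correlation of log2(CPM + 10) over the 12 sums of stratum and library, among 1073 genes with at least 100 UMIs. They were Gphn, which codes for gephyrin, a scaffold of inhibitory synapses (0.98), Gnas, the stimulatory G protein alpha subunit (0.97), Il31ra, a cytokine receptor (0.96), and Lars2, the mitochondrial leucyl-tRNA synthetase (0.95). Next came the kinase gene Hipk1 (0.94), Fam117a (0.94), the ubiquitin ligase gene March8 (0.93) and the glycosyltransferase gene Galnt1 (0.92). The median of all 1073 genes was 0.47. The least alike were Gm10801 (-0.40), Gm10800 (-0.35) and Lyz2, the lysozyme of myeloid cells (-0.35). AY036118 stood at rank 30 (0.84), while Gm26917 (0.34, rank 851) and Malat1 (0.39) were below the median. With UMIs neither globin nor mt- as the total, only Gphn (0.96) of these 8 stayed among the first 8, AY036118 moved to rank 3 (0.91), and Gm26917 stood at -0.88, with a median of -0.70 over all genes.

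Some abundant genes that lie on other chromosomes also tracked Gm42418 by share of all UMIs and were picked after their values were seen. Cmss1 (chromosome 16), named as a homolog of a yeast small-subunit factor, had 40837 UMIs in all, and its share correlated with the Gm42418 share across barcodes at 0.46 to 0.91 by rank in each stratum and library. There were 7.18 to 29.2 Cmss1 UMIs per 100 of Gm42418, with the 2 highest ratios over 80% mt- (24.1 and 29.2). Camk1d, a protein kinase gene on chromosome 2, had 20660 UMIs, and Cdk8, a Mediator kinase gene on chromosome 5, had 8841. None of their spliced transcripts, nor those of Lars2 or Gphn, shared a 50-base stretch with the 3 loci, and introns were not searched.

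Leaving the 3 loci out of the counts moved barcodes between the strata. The globin share of all UMIs became 78.3% without the loci, against 73.5% with them, in replicate 1, and 80.5% against 75.2% in replicate 2. In replicate 1, 142 of 1008 barcodes changed stratum, and 118 of them moved from 40 to 90% globin to at least 90%. In replicate 2, 109 of 849 changed, 75 of them by that step. Without the loci, 13 and 88 barcodes fell under 500 UMIs, the least that any barcode of these libraries had (500 and 501), and 77 of the 88 were sparse barcodes.

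The comparison tested here was between cell classes, which the selection of the loci did not use. It was made among the barcodes of under 40% globin, at most 20% mt- and at least 100 genes, so it is conditioned on measures that the selection did use. Barcodes with at least 3 markers of mesothelial or mesenchymal cells (such as Col3a1, Dcn and Gpm6a) numbered 17 in replicate 1 and 15 in replicate 2, and those with at least 3 leukocyte markers (such as Ptprc, Ebf1 and S100a8) numbered 60 and 5. Gm42418 took 13.7% of the UMIs of mesothelial or mesenchymal barcodes in replicate 1 and 11.7% in replicate 2, against 8.23% and 3.46% in leukocyte barcodes. The pooled shares differed in the same direction in both libraries, but the single barcodes of the classes overlapped. They ranged from 4.13 to 34.2% in mesothelial or mesenchymal barcodes of replicate 1, against 0.349 to 46.3% in leukocyte barcodes of that library.

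Summed per class and library and fitted across 2087 genes with edgeR (quasi-likelihood, library as a block, Benjamini-Hochberg adjustment), Gm42418 was higher in mesothelial or mesenchymal barcodes by 1.75 on the log2 scale (SE 0.13, adjusted p = 2.94e-23). In this fit 31.8% of genes were called, 20.3% higher and 11.5% lower, and Gm42418 was the 1 called of the 3 loci. The direction was the same in each library alone after TMM scaling, 1.06 in replicate 1 and 2.45 in replicate 2, which differ by far more than that SE. The call held with the other 2 scalings, with globin and mt- genes removed, with a rule of 2 markers and with a mt- limit of 10%. With total UMIs alone, 1 of those scalings, the difference was smaller and less certain (1.24, SE 0.49, edgeR adjusted p = 0.0338). It was lost without the block (1.53, edgeR adjusted p = 0.266), without the filter on low counts (1.94, edgeR adjusted p = 0.971) and with DESeq2 (2.05, adjusted p = 0.743). The adjusted p of these edgeR and DESeq2 alternatives ran from 3.84e-63 to 0.971, so its size is not a measure of the strength of this difference. The leukocyte sum of replicate 2 came from 5 barcodes and 12175 UMIs. Under 40% globin, S100a8 had 1940 UMIs in replicate 1 and 0 in replicate 2, and S100a9, another leukocyte marker, had 2379 and 0. The leukocyte barcodes of replicate 2 thus held neither marker, and the part of this in the unlike differences of the libraries was not tested. Mesothelial or mesenchymal barcodes were also deeper, with medians of 4045 and 6102 UMIs, against 1794.5 and 1879 in leukocyte barcodes, and had less mt- RNA (5.27% and 4.05%, against 7.56% and 7.31%). The part of depth and mt- RNA in this difference was not tested.

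AY036118 did not pass the test. It took 0.173% and 0.0965% of the UMIs of mesothelial or mesenchymal barcodes, against 0.186% and 0.0986% in leukocyte barcodes, so its plain shares were slightly lower in mesothelial or mesenchymal barcodes. After TMM scaling the log2 difference was 0.43 (SE 0.53, edgeR adjusted p = 0.638), and with total UMIs alone it was -0.07. The TMM factors were 0.823 and 0.851 for mesothelial or mesenchymal sums, against 1.03 and 1.38 for leukocyte sums, which raises all fitted differences above those of the plain shares. Its adjusted p ran from 0.390 to 0.999 over the edgeR and DESeq2 alternatives. Gm26917 took 0.0259% and 0.0205%, against 0.111% and 0.0821%, a log2 difference of -1.56 (SE 0.69, edgeR adjusted p = 0.0740) that did not pass. It passed with total UMIs alone (-2.05, edgeR adjusted p = 0.0116) and without the block (-1.66, edgeR adjusted p = 0.0168), and its adjusted p reached 0.999 with DESeq2. These values rest on 19 and 21 Gm26917 UMIs in mesothelial or mesenchymal barcodes, against 174 and 10 in leukocyte barcodes. Per 100 Gm42418 UMIs there were 0.189 and 0.175 of Gm26917 in mesothelial or mesenchymal barcodes, against 1.35 and 2.38 in leukocyte barcodes. For comparison, the median log2 difference of all 2087 genes was 0.17, and it was -0.29 with total UMIs alone.

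Of the gene lists in the same fit, in which 31.8% of all genes were called (663 genes, against 230 with no filter on low counts and 70 with DESeq2), Lars2 was 1 of 2 tested loci with ribosomal or repeat sequence that passed (higher by 1.80, edgeR adjusted p = 0.000208). Malat1 passed as 1 of 2 nuclear long noncoding RNAs (1.35, edgeR adjusted p = 2.98e-12). Among ribosomal protein genes 1 of 67 passed, Rpsa (1.87, edgeR adjusted p = 0.0293), with a list median of 0.53. The RNA polymerase I gene tested (Taf1d, -1.28) and the 2 rRNA processing genes tested (Ncl, 0.59, and Xrn2, -1.86) did not pass.

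The barcodes under 40% globin that met neither marker rule had higher pooled shares of Gm42418 and AY036118 than both marker classes in both libraries. There were 11 in replicate 1 and 22 in replicate 2, with medians of 949 and 1250.5 UMIs and of 307 and 126.5 genes. Gm42418 took 37.1% and 38.5% of their UMIs, AY036118 0.856% and 1.26%, and Gm26917 0.199% and 1.41%. The Gm26917 shares rest on few barcodes: all 405 of its UMIs in replicate 2 came from the 3 barcodes named above, and 2 barcodes with 15 and 14 UMIs held most of the 41 in replicate 1. The median share of Gm26917 per barcode was 0 in both libraries, against 0.0845% and 0.0532% in leukocyte barcodes. In replicate 2 the median globin share of these barcodes was 26.5%, against 0.368% in replicate 1, and 4 and 5 of them had at least 3 platelet markers.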

How the data were processed

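Raw UMI counts per gene and barcode were deposited by the authors as 10x matrices, 1 per library, written by Cell Ranger 7.1.0 per the file headers. Seurat 5 and mm10 are named in the submitters' processing notes. Kit chemistry, use of introns and strand in counting, barcode calling and removal of doublets are not stated there, and no doublet caller was run. All 1008 and 849 barcodes were kept. The members, strata and lists were chosen with earlier results of these data known. GENCODE M21 annotation held 32235 of the 32285 gene IDs and gave transcript sequence. Genome sequence was not used here.

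Shares are pooled UMIs of a stratum per library, with exact binomial (Clopper-Pearson) 95% intervals that cover counting error only. Barcodes were thinned to 500 UMIs for shares of barcodes with a UMI. Counts were summed per cell class and library (4 sums) and compared by the quasi-likelihood test of edgeR 4.0.16, run under R 4.3.3 (TMM scaling, filterByExpr, library as a block, threshold 0.05), a script that was tested on simulated data first. A class needed at least 3 different markers and more UMIs of them than of the other class. DESeq2 1.42.0, other scalings, filters, class rules and stratum limits were alternatives. Named genes were the 3 loci, the 8 genes most like Gm42418 and the 3 least like it over 12 sums, and the 4 most counted genes of each list. Other genes named were picked after their values were seen.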

Additional observations from a re-analysis of the deposited data

How the results depend on the processing

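The class difference of Gm42418 kept its direction throughout but lost its call with no filter (1.94), DESeq2 (2.05) and no replicate block (1.53), and leaving out a library gave 1.06 to 2.45. AY036118 turned to -0.069 with total UMIs alone, and 0.23 to 0.62 came from single libraries. Gm26917 passed with total UMIs alone (-2.05) and no replicate block (-1.66), and ranged from -1.74 to -1.34 in single libraries. Genes called fell to 230 with no filter and 70 with DESeq2, against 663. The cause of these changes was not tested. A lower mt- limit of 10% gave 12.1% Gm42418 and 0.161% AY036118 in the middle mt- stratum. A minimum of 200 genes gave Gm42418 1.98% at 90% globin or more and 5.27% at 40 to 90%. It gave AY036118 0.138%, 0.258% and 0.162% at 90% or more, 40 to 90% and under 40%, and Gm26917 0.000314% in the sparse stratum and 0.000742% at 40 to 90%. A globin limit of 50% gave 8.96% Gm42418 and 0.401% AY036118 above it and 0.368% AY036118 below it. Leaving out the barcode with most Gm26917 in each library, chosen after seeing the data, gave a mean share of 0.112% under 40% globin, against 0.199%. Of the 8 genes most like Gm42418, 4 stayed among the first 8 with Spearman correlation and 1 with UMIs neither globin nor mt- as the total. Unthinned, AY036118 had a UMI in 100% of barcodes in the strata of at least 90% and of 40 to 90% globin, 98.9% of sparse ones, 85.0% under 40% globin and 16.1% over 80% mt-, and Gm26917 in 4.08% over 80% mt-, 36.7% at 20 to 80% mt- and 51.4% under 40% globin. A second random thinning gave 55.5% for AY036118 at 90% globin or more and 2.87% for Gm26917 over 80% mt-. With 2 libraries, each spread rests on 1 difference, and classes of 5 to 60 barcodes limit the rest.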
